A study of Rattus norvegicus with 6 samples.

Results

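H19, the imprinted long noncoding RNA of the Igf2 locus, was singled out for its difference between dosed and vehicle rat livers, and 9 imprinted genes that act on fetal growth were set beside it: Igf2, Igf2r, Cdkn1c, Dlk1, Meg3, Peg3, Plagl1, Grb10 and Mest. The members were taken as every non-control array probe whose RefSeq transcript maps to 1 of these 10 symbols. This gave 12 of 61657 probes, for 7 genes; Meg3, Peg3 and Grb10 were matched by no probe and are not analysed here. Of the 7 genes, 5 passed a filter on dim probes and belong to the 27642 genes tested on the array, while Dlk1 and Plagl1 did not pass it. Of these 27642, 10982 carry a gene symbol. The others are counted by transcript identifier, so 1 gene may be counted more than once in the shares of all genes below. The livers came from 6 male Sprague-Dawley rats, an outbred stock, bought at 5 weeks of age. The dosed group of 3 animals received TCEP, the flame retardant tris(2-chloroethyl) phosphate, in a daily dose of 400 mg per kg, and the 3 vehicle animals received corn oil. Dosing lasted 9 weeks according to the treatment protocol, whereas the series' design text gives 28 days. All animals were kept on the same basal diet with tap water.

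Imprinted genes are expressed from the copy inherited from 1 parent only, and many of them act on growth before birth. In mammals H19 is transcribed from the maternal copy and Igf2, which encodes a fetal growth factor, from the paternal copy; the genes lie side by side, share enhancers, and are controlled by a methylated region where the insulator protein CTCF binds. Igf2r encodes the receptor that carries IGF2 to the lysosome, Cdkn1c an inhibitor of cyclin-dependent kinases, Dlk1 a transmembrane protein of progenitor cells, Mest a protein of the hydrolase fold family, and Plagl1 a zinc finger factor that in mouse acts on several other imprinted genes. In rodent liver H19 and Igf2 are abundant before birth and are turned down after it.

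The H19 transcript also carries a microRNA, miR-675, and Igf2 carries miR-483. Their sequences show which small RNAs lie within the genomic spans of these genes. Whether either microRNA is part of the spliced transcript that a probe reads was not checked. The arrays measured the host genes, and no probe was matched to either microRNA. In RefSeq's rat assembly GRCr8 the hairpin of miR-675 lies within H19 on the minus strand at chr1:207161752-207161835, with the mature arms in capitals below. In the mature forms the capitals mark the seed, bases 2 to 8, which pairs with target messages. The seeds of the 4 mature forms differed from each other, and each belonged to 1 of the 693 mature names of the rat table, so none was shared with another rat microRNA listed there.
miR-675 hairpin: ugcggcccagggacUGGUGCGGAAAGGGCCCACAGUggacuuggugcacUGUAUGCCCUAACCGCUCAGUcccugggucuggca
rno-miR-675-5p: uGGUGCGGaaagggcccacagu
rno-miR-675-3p: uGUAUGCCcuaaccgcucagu
rno-miR-483-5p: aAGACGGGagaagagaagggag
rno-miR-483-3p: cACUCCUCcccucccgucuugu

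On each array 57.2% to 64.4% of the non-control probes were well above background, the scanner software's call of a signal clear of its local background. Array pairs correlated across genes at 0.9915 to 0.9928 within TCEP and at 0.9857 to 0.9884 within corn oil, against 0.9876 to 0.9911 between the groups. The 3 TCEP arrays shared slide 3, which held no corn oil array, while corn oil replicates 1 and 3 lay on slide 1 and corn oil replicate 2 alone on slide 2, scanned 23 days later. Slide 3 and treatment therefore cannot be told apart. With Benjamini-Hochberg adjustment in limma, 0 of 27642 genes (0%) reached the threshold of 0.05, 0.291 being the smallest adjusted p. Unadjusted p-values fell under 0.05 in 2543 genes (9.2%), of which 1384 (5.01% of all genes) had a higher and 1159 (4.19%) a lower mean with TCEP; without TCEP replicate 3 the count was 1605. These p-values set each group difference against the spread between arrays within the groups, with a variance partly shared across genes. In corn oil that spread holds slide and scan day as well as animal. No difference given below thus passed the threshold, and the precision is set by the small number of arrays, with a median SE of 0.145 for a gene's log2 difference.

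H19 had a 4.33-fold higher mean in TCEP livers than in corn oil livers. Its processed signal was 345, 161 and 344 intensity units in TCEP replicates 1, 2 and 3, against 43.3, 55.3 and 80.5 in corn oil replicates 1, 2 and 3. On the log2 scale relative to the 75th percentile of each array, the levels were -0.69, -1.59 and -0.61 in TCEP livers and -3.44, -3.07 and -2.72 in corn oil livers. The groups did not overlap. TCEP replicate 2 was the lowest of its group and still lay 1.13 log2 units above corn oil replicate 3, the highest vehicle liver. The TCEP mean was -0.96 ± 0.55 and the corn oil mean -3.08 ± 0.36 (SD, n = 3 each), a log2 difference of 2.12 ± 0.31 (SE) with a 95% interval from 1.36 to 2.87. With normexp background correction, which starts from the median signals and adds an offset of 50 units to each, the log2 difference was 1.41. An added constant narrows the log2 differences of dim signals. The probe, A_44_P342289, was well above background on all 6 arrays and is the single H19 probe of the array, so no other probe repeats the value. Among the 27642 genes the H19 level stood at percentiles 49.0, 38.6 and 49.9 in TCEP replicates 1, 2 and 3, against 15, 19.7 and 25.1 in corn oil replicates 1, 2 and 3. Because H19 was chosen from this contrast, these values are a description and carry no test. For comparison, 0.0543% of all genes had a mean at least 4-fold higher with TCEP, and in 10.3% each of the 3 dosed livers exceeded each of the 3 vehicle livers. H19 ranked 13th of all genes by its difference, and 8th among those with a symbol. In liver RNA a change in RNA per cell and a change in the number of cells of a type cannot be told apart.

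**Figure D1:**
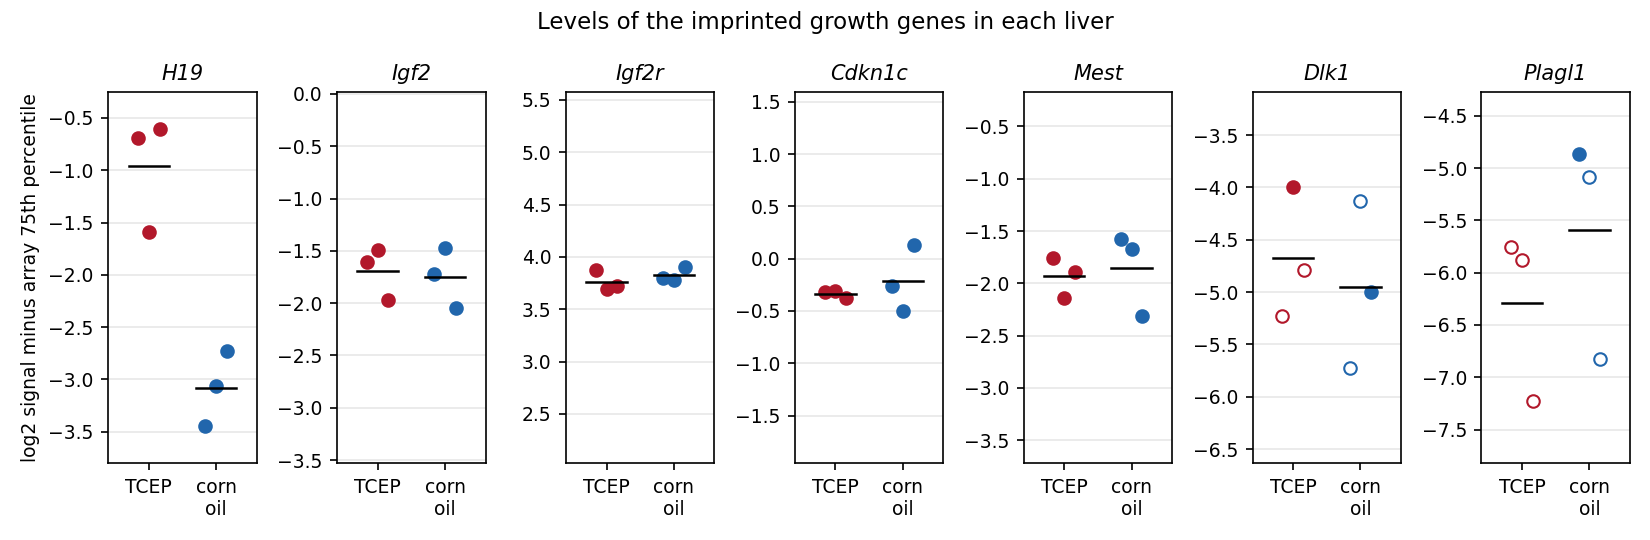
Log2 signal relative to the 75th percentile of each array (vertical axes, all spanning the same range) for the 7 imprinted growth genes with a probe, in TCEP livers on the left and corn oil livers on the right of each panel. Each point is 1 liver, in replicate order, lines are group means, and open points are signals not well above background. In H19 the 3 TCEP livers lie at -1.59 to -0.61, all above the corn oil livers at -3.44 to -2.72, while in the other 6 genes the groups overlap.

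Igf2, the paternally expressed neighbour of H19, had levels of -1.61, -1.49 and -1.97 in TCEP livers and -1.73, -1.47 and -2.04 in corn oil livers. The values of the groups lay within the same range. The log2 difference was 0.06 ± 0.19 (SE), with a 95% interval from -0.41 to 0.52, so a change in either direction of up to about that size was not detectable with 3 arrays per group. It ran from -0.09 to 0.19 with 1 array left out and was -0.02 with normexp background correction, so it has no settled sign. The difference of H19 exceeded that of Igf2 by 2.06 log2 units, by 1.74 to 2.47 with 1 array left out and by 1.43 with normexp.

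Igf2r, which removes IGF2 from the circulation, was a bright gene with levels of 3.87, 3.70 and 3.73 in TCEP livers against 3.80, 3.78 and 3.91 in corn oil livers. These groups overlapped as well. Its log2 difference was -0.07 ± 0.10 (SE), with a 95% interval from -0.30 to 0.17, the narrowest of the members. It was 0.04 with normexp background correction. The SD over 3 livers was 0.09 in TCEP and 0.07 in corn oil, so Igf2r hardly varied between animals.

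Cdkn1c, the cell cycle inhibitor, lies farther along the same chromosome region and had 5 probes, all well above background on all 6 arrays. The brightest gave levels of -0.32, -0.30 and -0.38 in TCEP livers and -0.27, -0.50 and 0.13 in corn oil livers. The TCEP values lay inside the spread of the corn oil values, and the log2 difference was -0.13 ± 0.17 (SE), with a 95% interval from -0.54 to 0.28. The other probes had differences of 0.15, 0.13, -0.03 and -0.11, so the probes disagreed in direction and the groups overlapped in each. Mest, expressed from the paternal copy in mouse, had -1.76, -2.14 and -1.89 in TCEP livers and -1.58, -1.67 and -2.31 in corn oil livers. Its log2 difference was -0.07 ± 0.22 (SE), with a 95% interval from -0.61 to 0.46. Corn oil replicate 3 was the lowest of the 6 livers for Mest, and without it the difference was -0.30.

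Dlk1 and Plagl1 were dim. The Dlk1 probe was well above background on 1 of 3 TCEP arrays, replicate 2, and on 1 of 3 corn oil arrays, replicate 3. Its signals were 14.8, 30.5 and 18.99 intensity units in TCEP livers and 8.88, 26.5 and 16.6 in corn oil livers, which overlap. Plagl1 had 2 probes. The brighter was well above background on 0 of 3 TCEP arrays and on 1 of 3 corn oil arrays, with signals of 10.3, 8.23 and 3.50 in TCEP livers against 16.1, 13.6 and 4.69 in corn oil livers. The dimmer probe had a signal clear of background on 0 of 6 arrays. No fold is given for either gene, since their probes were not called well above background on most arrays.

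The median log2 difference of the 4 other members that passed the filter was -0.07, against 0.00 over all 27642 genes. H19 had the only pair of groups that did not overlap among the 5 tested members, while in 17.4% of all genes the groups did not overlap in either direction; since H19 was chosen for this contrast, nothing is read from that share. The excess of the H19 difference was 2.18 log2 units over Igf2r, 2.24 over Cdkn1c and 2.19 over Mest.

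**Figure D2:**
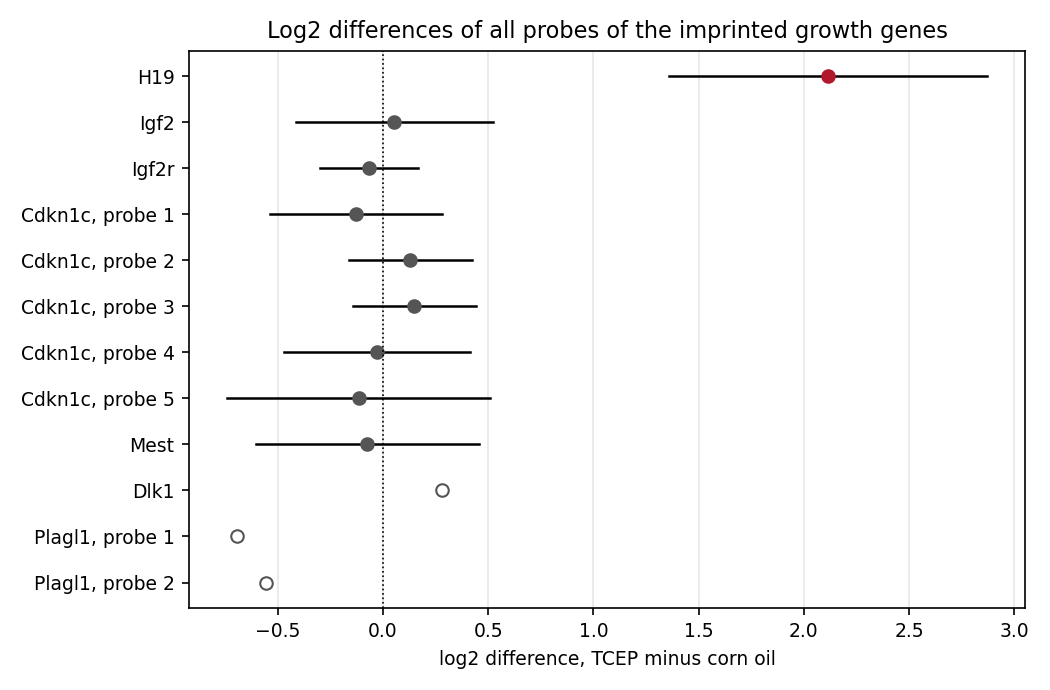
Log2 difference, TCEP minus corn oil (horizontal axis), of the 12 probes of the imprinted growth genes, with 95% intervals for the 9 probes that passed the filter. Open points are dim probes without an interval, and the H19 point is the only one in red, for groups that do not overlap. The H19 interval begins at 1.36, above the upper end of each of the other intervals drawn. Because H19 was chosen from this contrast, that gap is a description and carries no test.

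The genes next to H19 on rat chromosome 1 were then described, using only their order in GRCr8. The 12 measured genes with a symbol on each side were taken, a choice made after values were seen. Over these 24 genes the median log2 difference was -0.02, with 12 higher and 12 lower means, and the differences ran from -0.50 to 0.41. Mrpl23, a mitochondrial ribosomal protein gene and the closest measured gene on the side away from Igf2, had 0.20 ± 0.10 (SE), and the lysosomal protease gene Ctsd had 0.18 ± 0.10. Beyond Igf2, the tyrosine hydroxylase gene Th had -0.09 ± 0.10, the tetraspanin gene Cd81 0.10 ± 0.11 and the potassium channel gene Kcnq1 -0.05 ± 0.11. The groups did not overlap in 6 of the 24 (25%), against 17.4% of all genes. They were higher with TCEP in 3, Mrpl23, Ctsd and Slc22a18, and lower in 3, Krtap5-8, Ascl2 and Phlda2.

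**Figure D3:**
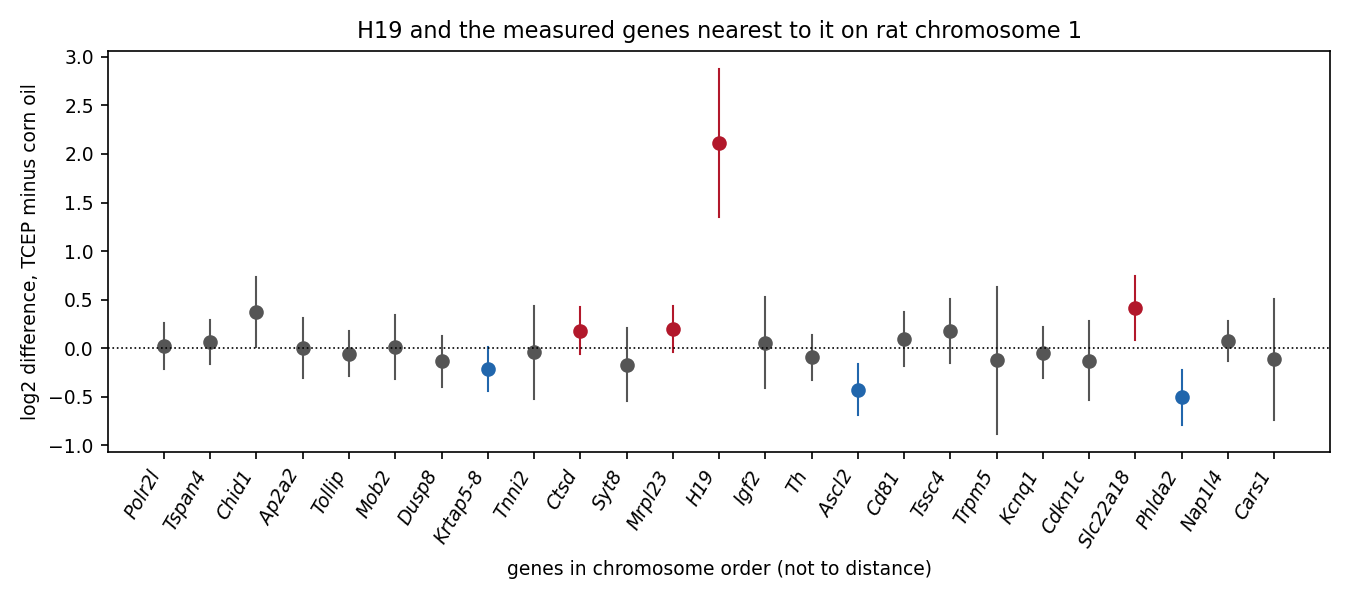
Log2 difference, TCEP minus corn oil (vertical axis), of H19 and the 12 measured genes on each side of it, in chromosome order and not to distance. Bars are 95% intervals; red and blue mark groups that do not overlap, higher and lower in TCEP, and grey marks overlap. H19 stands at 2.12 and the 24 neighbours lie between -0.50 and 0.41.

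Within this region 3 further imprinted genes had groups that did not overlap, in different directions. Phlda2, a maternally expressed gene that in mouse limits placental growth, had levels of -1.88, -1.80 and -1.57 in TCEP livers and -1.18, -1.35 and -1.21 in corn oil livers. All 3 TCEP livers were lower, by a mean log2 difference of -0.50 ± 0.12 (SE; limma adjusted p = 0.449). Its other probes gave -0.57, without overlap, and -0.46, with overlapping groups. Ascl2, a basic helix-loop-helix factor, had -1.18, -0.89 and -1.11 in TCEP livers and -0.65, -0.60 and -0.65 in corn oil livers. The 3 corn oil livers were nearly alike, and the difference was -0.43 ± 0.11 (limma adjusted p = 0.465), with -0.42 from a second probe. Slc22a18, an organic cation transporter-like gene, had 7.23, 7.45 and 7.58 in TCEP livers and 6.99, 6.86 and 7.18 in corn oil livers. Here the TCEP livers were the higher ones, by 0.41 ± 0.14 (limma adjusted p = 0.509), and a second probe gave 0.39.

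Other genes imprinted in mouse were described from a list of 52 symbols. The arrays give no value per parental copy, so whether these genes are imprinted in these livers was not measured. Of these, 41 had a probe and 26 passed the filter; 17 had a higher and 9 a lower mean with TCEP, where 50.9% of all genes had a higher one, with a median log2 difference of 0.07. When dim probes were kept too, the median was -0.05, and that of all genes -0.07. None passed the adjusted threshold in limma; at an unadjusted p under 0.05 there were 3 higher and 3 lower, where the shares of all genes were 5.01% and 4.19%. The groups did not overlap in 7 of the 26 (26.9%), 3 higher and 4 lower, against 17.4% of all genes, 10.3% higher and 7.06% lower. Ascl2, Cd81, Tssc4, Kcnq1, Slc22a18 and Phlda2 also belong to the neighbours of H19 above, so both shares count in part the same genes. Ddc, the decarboxylase of dopamine and serotonin synthesis, had the highest difference of the list. Its levels were 5.27, 5.42 and 5.46 in TCEP livers against 4.64, 4.04 and 4.16 in corn oil livers. All TCEP livers lay above all corn oil livers, with a log2 difference of 1.11 ± 0.17 (SE; limma adjusted p = 0.295), a 2.15-fold higher mean, and 1.23 from a second probe. Beside Ddc, Slc22a18, Phlda2 and Ascl2, groups did not overlap for Trappc9, a trafficking complex subunit (0.31 ± 0.09), for the amino acid carrier Slc38a4 (-0.40 ± 0.13) and for the sarcoglycan Sgce (-0.19 ± 0.10), which were named after their values were seen. Of the differences of the other genes, the G protein subunit Gnas had 0.07 ± 0.10, the thyroid hormone deiodinase Dio3 0.25 ± 0.36 and the ubiquitin ligase Ube3a 0.01 ± 0.09. The 15 genes with a probe that failed the filter included Ins2 and Usp29.

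**Figure D4:**
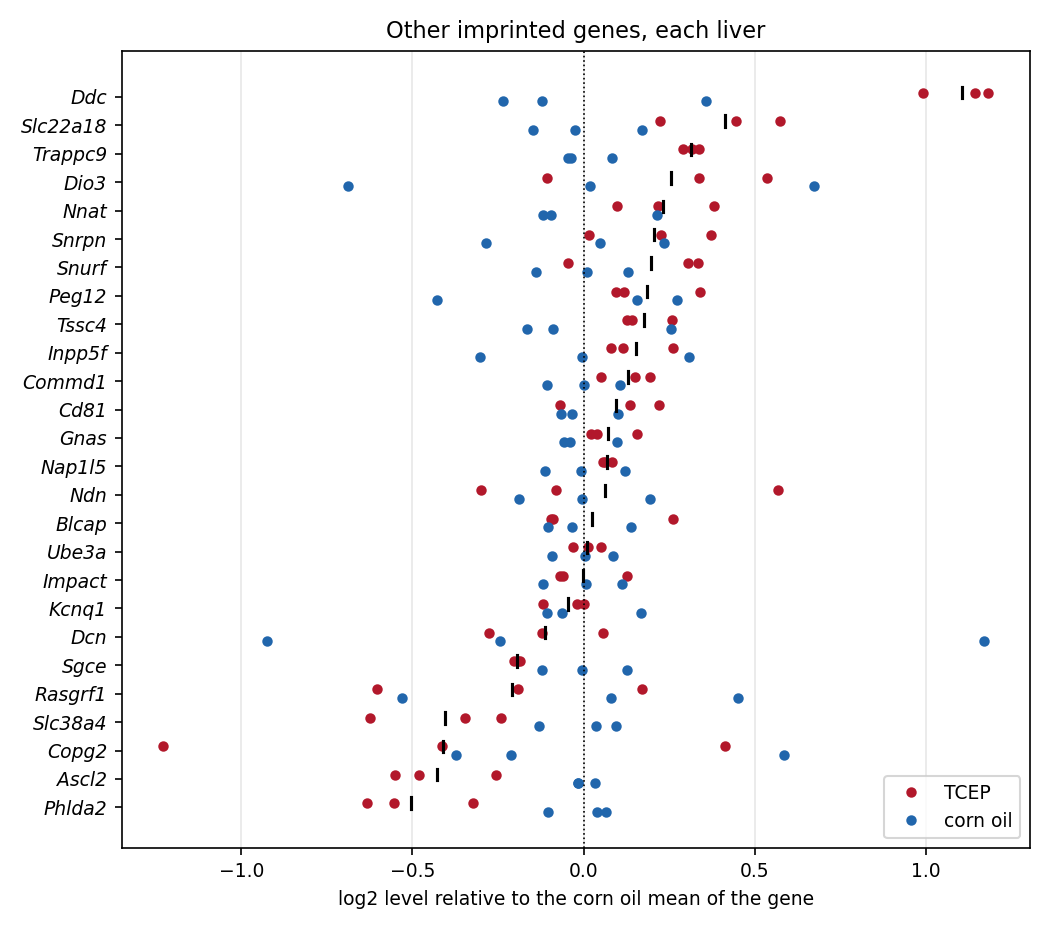
Log2 level in each liver relative to the corn oil mean of the gene (horizontal axis), for the 26 other imprinted genes that passed the filter, with TCEP livers in red above corn oil livers in blue. Black ticks are the mean log2 differences, sorted from Ddc at 1.11 down to Phlda2 at -0.50. In Ddc the red points lie to the right of all blue points, and in Phlda2 and Ascl2 to the left.

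Among 10 measured genes that carry or receive the IGF2 signal the groups overlapped in each, while in 17.4% of all genes they did not. Of these genes 4 had a higher and 6 a lower mean with TCEP, and the median log2 difference was -0.05. In limma 0 passed, and 0 had an unadjusted p under 0.05, against 9.2% of all genes. Igf1, the postnatal growth factor made in liver, had a difference of 0.10 ± 0.21 (SE; -0.11 without corn oil replicate 3), and the binding protein Igfbp4 0.02 ± 0.10. Insr, the insulin receptor, had -0.01 ± 0.13. The type 1 receptor Igf1r was dim, with -0.10 ± 0.29. Igfbp1, which changes quickly with feeding, varied more between vehicle animals than between groups: its levels were 4.31, 4.17 and 3.69 in TCEP livers and 3.24, 2.70 and 5.42 in corn oil livers.

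Factors that read or keep imprints had log2 differences from -0.37 in Dnmt1 to 0.24 ± 0.31 (SE) in Zfp57, a zinc finger protein that in mouse keeps imprints after fertilisation. Of 13 measured, 8 had a higher and 5 a lower mean, with a median log2 difference of 0.03. In limma 0 passed, and 0 had an unadjusted p under 0.05, against 9.2% of all genes. Ctcf, the insulator protein of the H19 control region, had 2.07, 2.07 and 2.04 in TCEP livers and 2.14, 2.18 and 2.03 in corn oil livers. Its groups overlapped, with a difference of -0.06 ± 0.09 (SE) and a 95% interval from -0.27 to 0.16. The corepressor Trim28 had 0.03 ± 0.11, the de novo DNA methyltransferase Dnmt3a 0.03 ± 0.11 and the maintenance methyltransferase Dnmt1 -0.37 ± 0.28. In Dnmt1 corn oil replicate 2 stood at -1.71, while the TCEP livers stood at -2.76, -2.74 and -2.69 and the other corn oil livers at -2.78 and -2.60. The cohesin gene Smc3 was the 1 of 13 (7.69%, against 17.4% of all genes) whose groups did not overlap, with 0.11 ± 0.08. DNA methylation itself was not measured.

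Other genes that fetal liver expresses and adult liver turns down were described beside H19. Of 5 that passed the filter 3 had a higher and 2 a lower mean, with a median log2 difference of 0.00; 0 passed in limma, and 1, Epcam, had an unadjusted p under 0.05, where the share of all genes was 9.2%. Epcam, at 0.52 ± 0.16, was also the 1 of these genes whose groups did not overlap, and it is counted again among the bile duct markers below. Afp, alpha-fetoprotein, had 3.53, 3.47 and 3.56 in TCEP livers against 3.38, 4.14 and 4.23 in corn oil livers. The TCEP livers were nearly alike and lay inside the vehicle range, with a difference of -0.39 ± 0.23 (SE). With 1 array left out, the Afp difference ran from -0.66 (without corn oil replicate 1) to -0.24 (without corn oil replicate 3). The surface protein gene Cd24 had 0.00 ± 0.13, and Gpc3, a glypican of fetal liver, 0.05 ± 0.18. Of the 8 liver transcription factors 3 had a higher and 5 a lower mean, with a median of -0.10. In limma 0 passed, and 0 had an unadjusted p under 0.05, against 9.2% of all genes. Zbtb20, which represses Afp in mouse liver, had -0.09 ± 0.13, Cebpb had -0.10 ± 0.25 and Foxa2 0.40 ± 0.43. The highest difference of that list was that of the pioneer factor Foxa1, at 0.71 ± 0.36, with overlapping groups. The 7 proliferation genes had a median of 0.34 with 6 higher means, where 50.9% of all genes had a higher one. Their groups overlapped in each, while in 17.4% of all genes they did not. In limma 0 passed, and 0 had an unadjusted p under 0.05, against 9.2% of all genes. The mean level of the 7 proliferation genes was -1.22, -1.74 and -1.32 in TCEP livers and -1.86, -1.32 and -1.85 in corn oil livers. Their part in the H19 difference was not tested. Of these, the cyclin-dependent kinase Cdk1 had 0.39 ± 0.36 and the replication clamp Pcna 0.05 ± 0.12.

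The labelled tissue was checked against hepatocyte markers, which averaged a log2 level of 7.82 to 8.10 in TCEP livers and 8.05 to 8.26 in corn oil livers. Albumin, Alb, had a difference of -0.19 ± 0.10 (SE) and transferrin, Tf, -0.15 ± 0.09, with groups that did not overlap, which was so in 2 of 10 markers against 17.4% of all genes. Of the 10 markers 8 had a lower and 2 a higher mean with TCEP, and the median was -0.15. The lowest difference was that of Tat, the tyrosine aminotransferase gene, at -0.81 ± 0.38 with overlapping groups, and the urea cycle genes Cps1 and Ass1 had -0.37 ± 0.22 and -0.32 ± 0.27. Of the bile duct cell markers 5 of 6 had a higher mean with TCEP; the median was 0.30, 0 passed in limma, and 2, Spp1 and Epcam, had an unadjusted p under 0.05 (9.2% of all genes) and no overlap between groups (17.4% of all genes). Spp1, osteopontin, had -1.66, -1.02 and -2.08 in TCEP livers and -3.20, -2.45 and -2.24 in corn oil livers. Its groups did not overlap, with a difference of 1.04 ± 0.35 (limma adjusted p = 0.513; 0.64 with normexp background correction). The adhesion protein gene Epcam had 0.52 ± 0.16 (limma adjusted p = 0.495), while keratin genes differed from each other, Krt19 at 0.50 ± 0.24 and Krt7 at -0.27 ± 0.18. The mean level of the 6 markers was -1.81, -1.58 and -2.11 in TCEP livers and -2.25, -2.07 and -2.13 in corn oil livers, and the part of these cells in the H19 difference was not tested.

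Stellate, endothelial and macrophage markers had median log2 differences of -0.06, -0.08 and -0.03 over 9, 5 and 8 genes, with 0 passing in limma. The vitamin A esterifying enzyme Lrat of stellate cells had -0.43 ± 0.15 (SE) and Reln -0.15 ± 0.09, the 2 of 9 whose groups did not overlap, against 17.4% of all genes. In the other direction the stellate markers Ngfr, Col3a1 and Rgs5 had 0.26 ± 0.39, 0.08 ± 0.09 and 0.03 ± 0.18. The endothelial genes Kdr and Lyve1 had -0.02 ± 0.11 and -0.07 ± 0.21 and the Kupffer cell genes Clec4f and C1qa -0.12 ± 0.28 and 0.04 ± 0.38. Macrophage markers varied widely between vehicle animals. The mean level of the 8 was 2.012, 1.97 and 2.365 in TCEP livers and 1.208, 2.399 and 2.871 in corn oil livers. The part of these cells in the H19 difference was not tested. Adult skeletal muscle and adrenal cortex also express H19 or Dlk1. Of 7 muscle markers with a probe 4 passed the filter, and the median was -0.04. Ckm had -0.04 ± 0.21, Tnni2 -0.04 ± 0.20, Acta1 -0.56 ± 0.29 and Atp2a1 0.10 ± 0.19. The groups overlapped in each of these 4, while in 17.4% of all genes they did not, and nothing is read from so few genes. Of 8 adrenal markers with a probe 3 passed, all with lower means in TCEP, among them Hsd3b1 at -0.09 ± 0.23 and Cyp21a1 at -0.54 ± 0.23. Cyp21a1 was the 1 of 3 (33.3%, against 17.4% of all genes) whose groups did not overlap. Cyp11b1, Star, Mc2r and Nr5a1 were not well above background on any array.

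**Figure D5:**
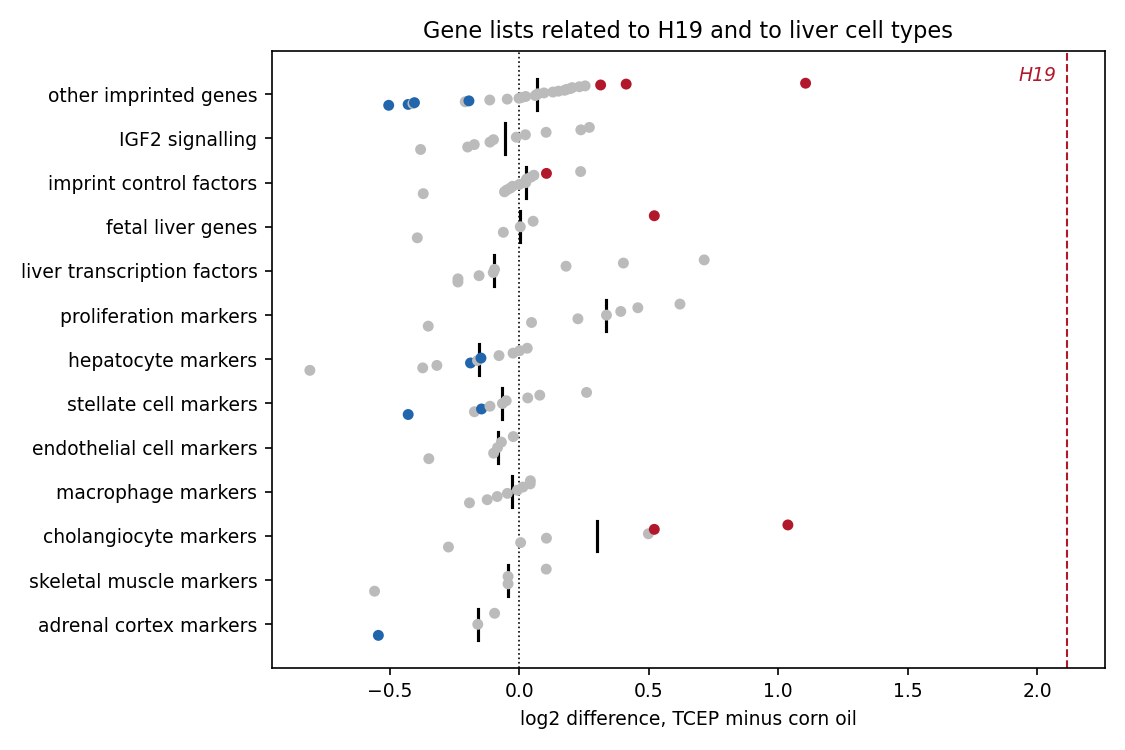
Log2 difference, TCEP minus corn oil (horizontal axis), of each measured gene in the 13 lists, 1 point per gene, with black ticks for list medians. Red and blue points have groups that do not overlap, higher and lower in TCEP; grey points overlap, and the dashed line is H19 at 2.12. No listed gene reaches that line, Ddc coming closest at 1.11. Of all genes 0.0543% had a mean at least 4-fold higher with TCEP, and H19 was chosen from this contrast, so nothing is read from this.

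The genes whose levels followed H19 most closely over the 6 arrays were ranked by Pearson correlation among 10438 genes that carry a symbol and were called above background on each of the 6 arrays. The first 5 were Pih1d1 (0.9959), Nipal2 (0.9917), Rpl12 (0.9896), App (0.9888) and Rpl13 (0.9879). These arrays share the slides described above, and any gene with a steady group difference ranks high by this measure. App, the amyloid precursor protein gene, had levels of 3.51, 3.20 and 3.75 in TCEP livers against 2.36, 2.45 and 2.51 in corn oil livers. As in H19, TCEP replicate 2 was the lowest of the dosed livers and above all vehicle livers; the log2 difference was 1.04 ± 0.15 (SE). Nipal2 had -1.36, -1.83 and -1.26 in TCEP livers and -3.11, -2.86 and -2.39 in corn oil livers. The order of the 6 livers was that of H19 in Pih1d1, Nipal2, Rpl12 and App, as can follow from choosing genes by this correlation. The ribosomal protein genes Rpl12 and Rpl13 and the assembly factor gene Pih1d1 had smaller differences, of 0.32 ± 0.09, 0.09 ± 0.08 and 0.37 ± 0.09.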

How the data were processed

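Cy3-labelled liver RNA was measured on 1-colour Agilent arrays. The deposited files, made with Feature Extraction 10.7.1.1 per the file headers and 10.7 per the submitters' processing notes, give background-subtracted intensity and the median intensities of spot and local background, all on a linear scale, and other columns of flags of 0 or 1. The authors' deposited value table holds a ratio of the processed signal to each array's 75th percentile, read from the values; its column medians were 0.0956, 0.0972 and 0.0953 for TCEP and 0.100, 0.104 and 0.0962 for corn oil. Levels are log2 of the processed signal minus the array's 75th percentile over 61657 non-control probes; 64 outlier-flagged spots were set to missing and 5 saturated spots kept. The filter kept 37043 probes that were well above background on every array of 1 group or of both, and each gene was taken by its brightest kept probe. Symbols came from RefSeq, GRCr8, by unversioned accession (27460 probes); the array design names an older build, so no gene coordinates are given. The groups were compared with limma 3.58.1 under R 4.3.3 (lmFit, then eBayes), two-sided and Benjamini-Hochberg adjusted over 27642 genes, threshold 0.05, and tested on simulated data. Replicates were taken as animals. The members and gene lists were chosen with earlier results of these data known. Genes were named by list: up to 4 without overlap between groups and well above background in the higher group, otherwise the 2 brightest; genes named beyond this rule were chosen after their values were seen. Alternatives changed the normalization, background correction (normexp, offset 50, on median signals), filter, probes per gene, slide, replicate block, outlier flags and the arrays used.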

Additional observations from a re-analysis of the deposited data

How the results depend on the processing

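In all 17 alternatives 0 genes passed the threshold in limma; the smallest adjusted p ranged from 0.0577 to 0.712. Genes with an unadjusted p under 0.05 numbered from 1605 (without TCEP replicate 3) to 3213 (without corn oil replicate 3) with 1 array left out, and was 1901 with the replicate block. Same-numbered arrays did not deviate together (correlations of -0.0483, -0.165 and -0.015), so the numbers were not taken as pairs; with the block the H19 difference was again 2.12. The H19 log2 difference ran from 1.93 to 2.43 with 1 array left out. It was 1.41 with normexp background correction, which adds 50 units to each signal. With normexp the H19 excess was 1.43 over Igf2, 1.38 over Igf2r, 1.54 over Cdkn1c and 1.47 over Mest. How much of the smaller H19 difference came from the added units was not tested. Excesses with 1 array left out were 1.98 to 2.46, 2.04 to 2.57 and 1.87 to 2.59. The median of the other members stayed between -0.13 and -0.01. Centring on the median raised the median of all genes to 0.06 and the share of higher means among genes at an unadjusted p under 0.05 to 76.2%, against 54.4%. Of 37 other named genes 18 changed sign in at least 1 alternative, among them Igf2, Igf2r, Cdkn1c and Mest. The 6 arrays and, for Dlk1 and Plagl1, signals near background limit these values. No analysis by pairs or slides separates slide 3 from TCEP.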
